A study of Mus musculus with 22 samples.

Results

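Cadherins are calcium-dependent adhesion receptors of the cell surface, and the genes described here are the classical cadherins, a few relatives of them and the protocadherins that lie outside the clustered loci. Members were taken from a list of 34 gene symbols, and each was read from the RefSeq-identified probe with the highest median over the arrays. A probe was named for 33 of the 34 members, out of 20129 gene symbols with a named probe in the series. No probe was named for Pcdh11x, so it has no value here.

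The data come from Transcriptome Tomography, in which a whole brain is cut serially along one axis and the expression density in each slab is read from a microarray. The 22 fractions of total RNA came from 3 male C57BL/6J mice, with 10 coronal fractions of 1 mouse, 6 horizontal fractions of the next and 6 sagittal fractions of the last. The titles gave an age of 7 days and the age field 3 days, and the published methods list the brain with 22 fractions at 7 days. No mouse carried an allele or received an agent named in the labels. The labels put 100 slices of 5 µm in a slab, or 500 µm, and the published methods give a larger thickness, for which reason no distance is stated. Slabs 10 and 11 were joined as the last coronal fraction, slabs 1 and 2 as the first sagittal one and slabs 7, 8 and 9 as the last sagittal one. Every fraction was measured on 1 array from 1 mouse. No value has a replicate, and differences between fractions include whatever differed between arrays. A level is the log2 processed intensity of a probe after subtracting the 75th percentile of its array, so 0 is the brightness of the 75th percentile probe and a difference of 1 is a 2-fold difference. Levels are compared between fractions of 1 probe and never between probes, whose brightness also depends on the probe. The error that the scanner software gave to a member's value had a median of 0.149 on the log2 scale. In these bulk fractions, fewer cells of a type and less RNA per cell cannot be told apart.

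Classical cadherins bind the same or a related cadherin on the facing cell through the outermost extracellular repeat, and their cytoplasmic tails bind beta-catenin and p120-catenin, which link them to actin. In the developing brain, type I and type II cadherins are expressed in overlapping sets of nuclei, layers and cell groups, and they act in cell sorting, axon growth and synapse choice. The delta-protocadherins have weaker adhesion, share short conserved cytoplasmic motifs and act in axon outgrowth and synapse formation.

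The order of the fractions was read from regional marker lists, since the labels do not say which end was cut first. The mean level of 5 hindbrain markers was highest in coronal fraction 1 (2.13), that of the cerebellar markers in fraction 2 (1.92), midbrain in fraction 4 (0.48), thalamus in fraction 6 (1.96), striatum in fraction 8 (2.01), cortex in fraction 9 (2.27) and olfactory bulb in fraction 10 (3.80). Coronal fraction 1 was therefore the hindbrain end and fraction 10 the olfactory bulb end. Cortical markers were highest in horizontal fraction 1 (1.63) and hypothalamic markers in horizontal fraction 6 (3.19). In the sagittal series hypothalamic markers were highest in fraction 3 (1.32) and lowest in fraction 1 (-3.09), which puts the midline inside the series. Neuronal, astrocyte and oligodendrocyte markers were above background in all 22 fractions.

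On 7 arrays the slope of the Agilent E1A spike-in controls fell outside the range accepted by the scanner software. They were coronal fractions 1 and 2, horizontal fractions 1 to 3 and sagittal fractions 1 and 3. Between 36119 and 41965 of 55600 probes were well above background on these arrays, against 29605 to 36342 on the other 15. Over all 16691 genes tested the median level was 0.163 lower on these 7 arrays, and over the 29 members tested it was 0.352 lower. The hybridisations used 4 slides. Coronal fractions 1 and 3 to 8 shared slide 1, coronal fraction 2 was on slide 2, coronal fractions 9 and 10 and all sagittal fractions were on slide 3, and all horizontal fractions on slide 4. Because the spike-in slope runs with position, its part in the results below was not tested beyond the values given with them.

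Most members were expressed in the brain at this age. Of the 33 members with a probe, 29 were well above background at least once in each of the 3 series, or 87.9% against 82.9% of all named genes. In all 22 fractions 27 of the 33 were above background, or 81.8% against 67.9% of all named genes. The other 2 of the 29 were Cdh3, above background in 18 fractions, and Cdh24, above background in 9. Cdh16, known as the kidney cadherin, was above background in horizontal fraction 2 alone, and Cdh17, the liver and intestine cadherin, in sagittal fraction 2 alone. Cdh23, which with Pcdh15 forms the tip links of hair cells, was above background in horizontal fraction 3 alone. Both horizontal fractions are among the arrays with the spike-in slope out of range, and r with spike-in probe a107 over the 22 arrays was 0.73 for Cdh16 and -0.079 for Cdh23, over values that were nearly all near background. Cdh19, a type II cadherin of the Schwann cell lineage, was above background in no fraction. These 4 members were left out of the tests, and each had a single named probe.

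**Figure D1:**
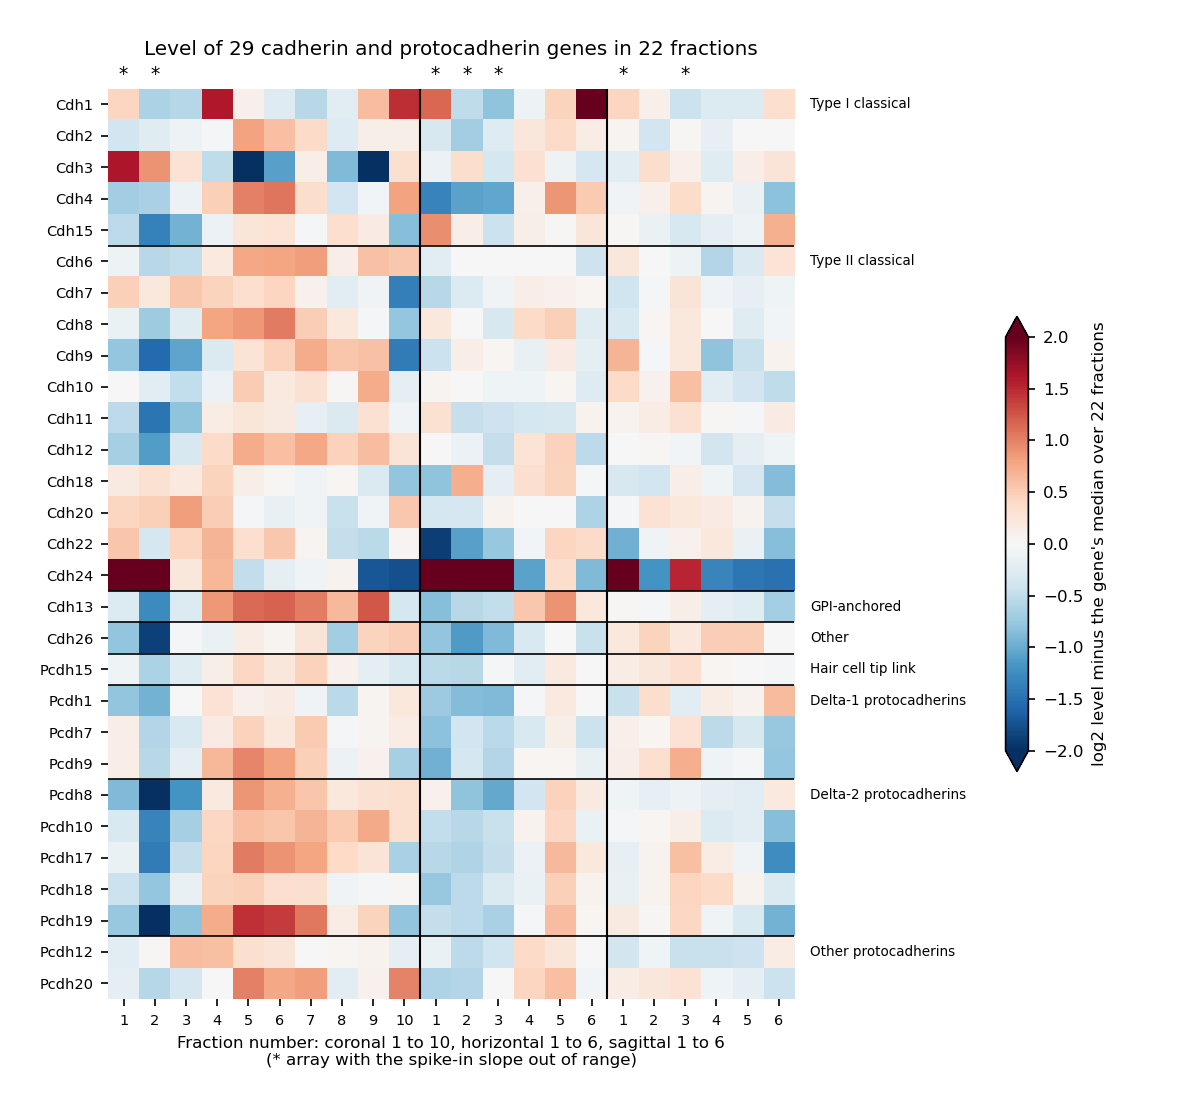
Heatmap of 29 members (rows, grouped by subfamily) in 22 fractions (columns, by series and fraction number). Colour is the log2 level minus the median of that gene over the 22 fractions, cut at 2 units in either direction, and asterisks mark the 7 arrays with the spike-in slope out of range. The 5 delta-2 protocadherins and Cdh13 share a band above their medians in coronal fractions 4 to 7, and Cdh24 is high on the marked arrays.

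The coronal series, from hindbrain to olfactory bulb, held most of the calls. Of the 29 members tested, 15 changed with coronal position (limma F test of a linear and a quadratic term, Benjamini-Hochberg adjusted p under 0.05 over 39621 probes), beside 19.8% of all probes tested. Over genes read from 1 probe each, as the members were, 4246 of the 16691 tested were called. All 5 delta-2 protocadherins changed, with 6 of 11 type II cadherins (Cdh6, Cdh7, Cdh8, Cdh9, Cdh12 and Cdh24), 2 of 5 type I cadherins (Cdh3 and Cdh15), the glycosylphosphatidylinositol-anchored Cdh13 and 1 of 3 delta-1 protocadherins (Pcdh9). For 13 of the 15 the fitted curve peaked between fractions 4 and 8, and for Cdh3 and Cdh24 it peaked at fraction 1. Of the 4246 genes called along this series, 53.5% peaked between fractions 4 and 8 and 24.8% at fraction 1. Among the 13 members, the measured level was highest outside fractions 4 to 8 for Cdh13 and Pcdh10 (fraction 9) and for Cdh7 (fraction 3). Coronal fraction 2 held the lowest level of 10 of the 15 and of 36.6% of all genes tested, and fraction 10 that of 4 and of 8.44%. The median fitted range over the 29 members was 1.25 log2 units, against a median scatter around the curve of 0.361.

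These calls depended on how the spread was estimated, on the covariates and on single arrays. With the 10 coronal arrays alone 1 member was called (1.6% of probes), with the 15 arrays in range of the spike-in slope 9 (10.4%), of which 6 were among the 15, with the spike-in signal as a covariate 4 (10.9%) and with the slide as a block 2 (4.03%). Slide 2 held coronal fraction 2 alone, so the block fits that fraction exactly, and it gives fractions 9 and 10 an offset of their own. Calls lost with this block cannot tell slide from position. Leaving out coronal fraction 2 or fraction 6 left 7 of the 15, fraction 7 left 8, fraction 5 or fraction 10 left 9 and fraction 4 or fraction 9 left 10.

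The delta-2 protocadherins are shown first, with the stretch just upstream of each transcript start, because all 5 changed. The sequences are RefSeq sequences of GRCm38.p6, 120 bases ending at the base before the annotated start and written in the direction of transcription. Capitals mark matches on either strand to CCAAT (read here as ATTGG in every case), GGGCGG (read here as CCGCCC) and TATAAA, and these 3 motifs do not overlap in the stretches shown.
Pcdh8 upstream (chr14:79771313-79771432, minus strand): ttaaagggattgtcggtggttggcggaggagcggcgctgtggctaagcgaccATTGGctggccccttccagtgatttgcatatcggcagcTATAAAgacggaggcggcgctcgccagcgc
Pcdh10 upstream (chr3:45378278-45378397, plus strand): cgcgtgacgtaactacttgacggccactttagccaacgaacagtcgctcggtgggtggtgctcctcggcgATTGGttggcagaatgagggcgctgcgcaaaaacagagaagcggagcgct
Pcdh17 upstream (chr14:84443443-84443562, plus strand): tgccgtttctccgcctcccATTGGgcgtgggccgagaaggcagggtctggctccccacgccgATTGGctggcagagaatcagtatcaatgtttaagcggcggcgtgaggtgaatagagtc
Pcdh18 upstream (chr3:49757317-49757436, minus strand): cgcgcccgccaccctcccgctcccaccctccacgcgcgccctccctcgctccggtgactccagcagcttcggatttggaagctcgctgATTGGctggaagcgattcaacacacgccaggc
Pcdh19 upstream (chrX:133688994-133689113, minus strand): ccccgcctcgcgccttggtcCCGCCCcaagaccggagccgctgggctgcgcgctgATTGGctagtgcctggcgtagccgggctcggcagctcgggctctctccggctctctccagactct
All 5 stretches held CCAAT, on the opposite strand each time, and 21.3% of the 32851 mouse promoters in the table held it in the same window. The first base of the match lay 68 bases before the start for Pcdh8, 50 for Pcdh10, 32 for Pcdh18 and 65 for Pcdh19, and Pcdh17 held matches at 101 and 58. TATAAA occurred in that of Pcdh8 alone, 30 bases before the start, against 6.34% of the same promoters, and GGGCGG in that of Pcdh19 alone, against 26.5%. The matches describe the letters of these windows and nothing was measured on them. Of the 34 members 22 had a promoter in the table.

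Pcdh19, a protocadherin of the X chromosome known from an epilepsy that affects mostly females, had the largest swing of the 5. In coronal fractions 1 to 10 its log2 level was 1.65, 0.38, 1.60, 3.15, 3.87, 3.81, 3.46, 2.55, 2.85 and 1.62. The level was low in fractions 1 to 3, high from 4 to 7 and low again in fraction 10, and fraction 5 stood 11.2-fold above fraction 2. The fitted range was 2.79 log2 units with a scatter of 0.598 around the curve (limma adjusted p = 0.0125). This call held without any 1 of the coronal arrays, with adjusted p-values up to 0.0348 over all 22 omissions, and with the 15 arrays in range (0.0446), and was lost with the spike-in signal as a covariate (0.085), with the slide as a block (0.0545) and with the coronal arrays alone (0.104).

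Pcdh17, which acts at synapses of the circuits between cortex and basal ganglia, followed it closely. Its levels in coronal fractions 1 to 10 were 2.92, 1.65, 2.58, 3.49, 4.09, 3.95, 3.85, 3.45, 3.31 and 2.41. Again fraction 5 was highest and fraction 2 lowest, and here fraction 10 was next to lowest (limma adjusted p = 0.033). Without coronal fraction 6 the adjusted p was 0.0777, without fraction 10 it was 0.0559, without fraction 5 it was 0.0706 and without fraction 7 it was 0.0695. It was 0.0232 with the 15 arrays in range and 0.161 with the spike-in signal as a covariate.

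Pcdh8, known as arcadlin and induced by neuronal activity, rose without the fall at the olfactory end. Its coronal levels from fraction 1 to 10 were 1.35, -0.056, 1.05, 2.44, 3.11, 2.94, 2.79, 2.45, 2.54 and 2.56. Fractions 4 to 10 all stood above fractions 1 to 3, and fraction 5 was 8.99-fold above fraction 2 (limma adjusted p = 0.0191, and 0.0571 without fraction 2). The adjusted p was 0.125 with the 15 arrays in range and 0.0869 with the spike-in signal as a covariate.

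Pcdh10, also called OL-protocadherin, had the flattest plateau. Its levels in the same order were 2.36, 1.34, 2.00, 3.08, 3.27, 3.22, 3.35, 3.20, 3.42 and 2.99. Fractions 4 to 10 lay between 2.99 and 3.42, all above the first 3 fractions (limma adjusted p = 0.0178, and 0.0551 without fraction 2). With the arrays in range it was 0.0597, and with the spike-in covariate 0.0735. A further Pcdh10 probe had r = 0.969 with the probe used over the 22 fractions.

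Pcdh18 had the smallest swing, with coronal levels of 0.69, 0.35, 0.98, 1.57, 1.61, 1.46, 1.44, 1.06, 1.10 and 1.15. The highest levels were in fractions 4 to 7 and the lowest in fraction 2, and the call was close to the threshold (limma adjusted p = 0.0472). It was lost in 12 of 15 alternative settings and without any 1 of 7 of the 10 coronal arrays, with adjusted p-values up to 0.108 over all 22 omissions. None of the 5 delta-2 calls was kept with the slide as a block or with the coronal arrays alone.

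**Figure D2:**
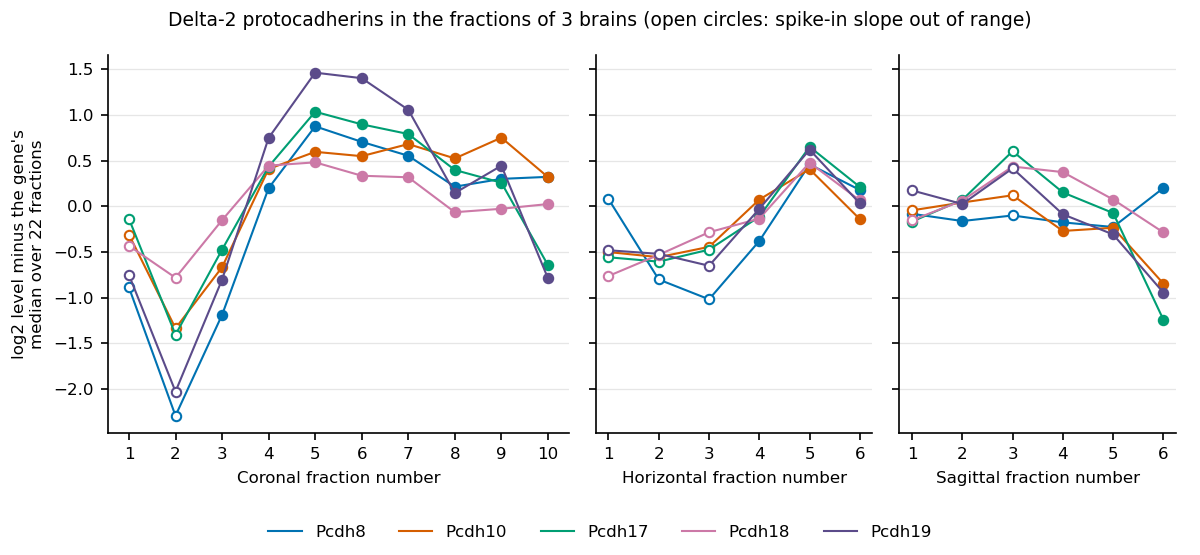
Line plot of Pcdh8, Pcdh10, Pcdh17, Pcdh18 and Pcdh19 (y axis, log2 level minus each gene's median over 22 fractions) against fraction number in the coronal, horizontal and sagittal series. Open circles are arrays with the spike-in slope out of range. All 5 genes are lowest in coronal fraction 2, as are 17 of the 29 members tested and 36.6% of all genes tested. All 5 are highest in horizontal fraction 5, as are 17 of the 29 members and 22.6% of all genes.

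Cdh13, or T-cadherin, is held in the membrane by a lipid anchor and has no cytoplasmic tail. Over the 10 coronal fractions its r with Pcdh19 was 0.96, and its levels from fraction 1 to 10 were 3.59, 2.59, 3.59, 4.73, 5.00, 5.04, 4.88, 4.51, 5.10 and 3.51. Fractions 4 to 9 stood above the 4 others (limma adjusted p = 0.0173), and the call held without any 1 of the 22 arrays, with adjusted p-values up to 0.0422. It was lost with the 15 arrays in range (adjusted p = 0.0541), with the spike-in signal as a covariate (0.114) and with the slide as a block (0.0589).

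The type II cadherins moved in different shapes. Cdh7 carried the firmest call among the members (limma adjusted p = 0.00111). Its coronal levels were -0.079, -0.35, -0.013, -0.12, -0.22, -0.13, -0.48, -0.78, -0.63 and -1.93. They were nearly level from the hindbrain through fraction 6 and fell toward the olfactory bulb, where fraction 10 stood far below the rest. Cdh7 was the one member called with the coronal arrays alone (adjusted p = 0.0441). It kept its call in 14 of 15 alternative settings, all but the 7 coronal arrays of slide 1, which lack fractions 2, 9 and 10 (adjusted p = 0.124). Without fraction 10 in the model of all series the adjusted p was 0.0553.

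Cdh8 and Cdh9 peaked inside the brain and fell at both ends. The coronal levels of Cdh8 were -0.36, -0.93, -0.46, 0.56, 0.65, 0.83, 0.27, -0.013, -0.26 and -0.99. They were highest in fractions 4 to 6, and the means of the thalamic and the hypothalamic markers were likewise highest in fraction 6 (limma adjusted p = 0.0199, 0.0562 without fraction 6 and 0.0601 without fraction 10). Cdh9, which acts at the synapses of hippocampal mossy fibres, had coronal levels of -1.90, -2.69, -2.19, -1.43, -0.86, -0.68, -0.39, -0.58, -0.55 and -2.54. Its plateau lay further forward, in fractions 5 to 9, and fractions 2 and 10 were lowest (limma adjusted p = 0.0213, 0.0578 without fraction 2 and 0.0526 without fraction 7). Both calls held with the 15 arrays in range, with adjusted p = 0.033 for Cdh8 and 0.0206 for Cdh9. With the spike-in signal as a covariate Cdh8 was lost (0.1) and Cdh9 was not (0.0342), and with the slide as a block both were lost (0.171 and 0.131).

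Cdh12, a brain cadherin first described beside N-cadherin, and Cdh6, the kidney and brain cadherin, rose from the hindbrain and stayed up. Cdh12 had coronal levels of -1.02, -1.47, -0.67, 0.035, 0.39, 0.25, 0.41, 0.10, 0.27 and -0.10. Fractions 4 to 10 all stood above fractions 1 to 3 (limma adjusted p = 0.00819), and the call held without any 1 of the 22 arrays, with adjusted p-values up to 0.0273. It was 0.0725 with the 15 arrays in range and 0.0439 with the spike-in covariate. The Cdh12 call was lost with the slide as a block and with the coronal arrays alone. Cdh6 had coronal levels of -0.73, -1.18, -1.13, -0.44, 0.15, 0.16, 0.20, -0.50, -0.041 and -0.093, also lowest in fractions 1 to 3 but with a dip in fraction 8 (limma adjusted p = 0.0405). That call was lost in 9 of 15 alternative settings and without any 1 of 7 of the 10 coronal arrays, with adjusted p-values up to 0.135 over all 22 omissions.

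Cdh10, Cdh11, Cdh18, Cdh20 and Cdh22, the other type II cadherins tested, did not pass the coronal threshold. Cdh11, the osteoblast cadherin that is also found in the meninges and brain, ranged from -1.67 in fraction 2 to 0.096 in fraction 9 (limma adjusted p = 0.072). Cdh18 ranged from -2.38 in fraction 10 to -1.14 in fraction 4 (0.0655) and Cdh20 from -2.42 in fraction 8 to -1.13 in fraction 3 (0.0913). Cdh10 ranged from -0.89 in fraction 3 to 0.35 in fraction 9 (0.336). Cdh20 had its higher levels in fractions 1 to 4 and 10, and over the 22 fractions its r with Cdh15 was -0.83.

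**Figure D3:**
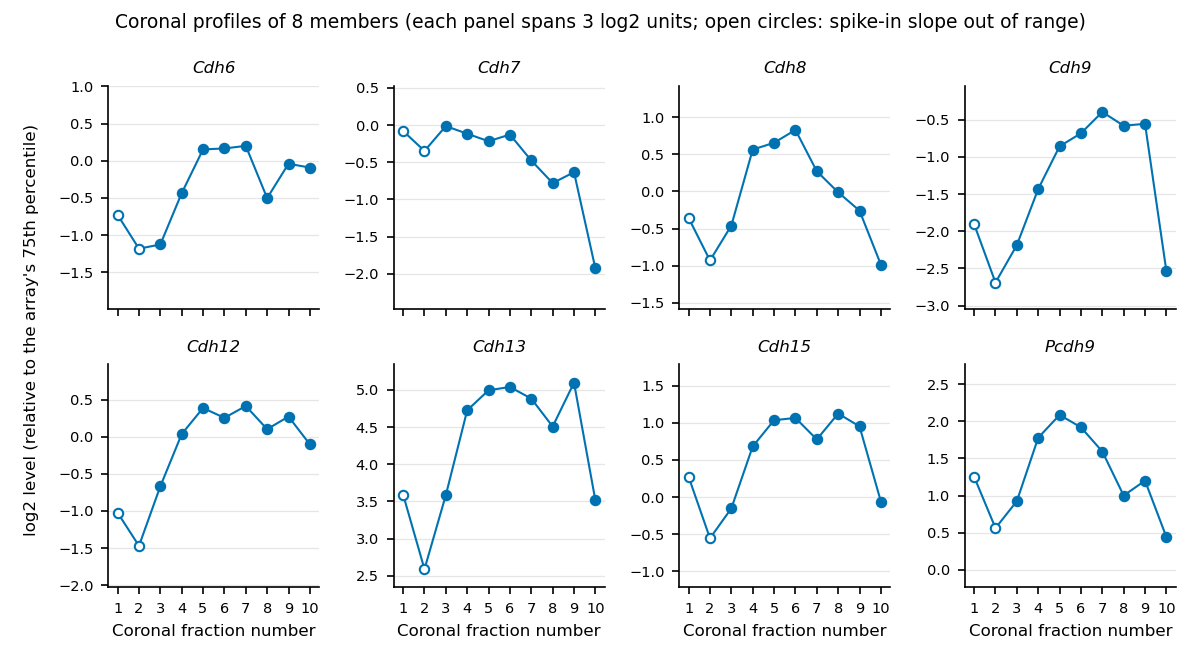
Coronal profiles of Cdh6, Cdh7, Cdh8, Cdh9, Cdh12, Cdh13, Cdh15 and Pcdh9, with the log2 level on the y axis and fraction number on the x axis. Each panel spans 3 log2 units, points are single arrays, and open circles mark the spike-in slope out of range. Fraction 2 is low in most panels, and Cdh7 and Cdh9 drop in fraction 10.

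Among type I cadherins, Cdh2 (N-cadherin, the main classical cadherin of neural tissue) varied little. Its coronal levels ran from 3.92 in fraction 1 to 5.10 in fraction 5, and its SD over the 22 fractions was 0.344, at percentile 36.2 of all genes tested. It did not pass the threshold along the coronal series (limma adjusted p = 0.142) or the horizontal series (0.173). Cdh15, or M-cadherin, known in muscle and in granule cells of the cerebellum, had coronal levels of 0.27, -0.55, -0.15, 0.68, 1.04, 1.07, 0.78, 1.12, 0.95 and -0.059. They were lowest in fractions 2, 3 and 10, and fraction 2 also had the highest mean of cerebellar markers (limma adjusted p = 0.0422). The call held with the 15 arrays in range (0.0348) and was lost in 7 of 15 alternative settings and without any 1 of 7 of the 10 coronal arrays, with adjusted p-values up to 0.108 over all 22 omissions. Of 4 skeletal muscle markers 2 were above background in all 22 fractions and 1 in none.

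Cdh1 (E-cadherin, the cadherin of epithelia) had the fourth largest spread of the members, an SD of 0.788, without passing a threshold. Its coronal levels were -2.23, -3.31, -3.24, -1.06, -2.57, -2.92, -3.21, -2.88, -2.04 and -1.18 and its horizontal levels -1.52, -3.17, -3.47, -2.76, -2.22 and -0.61. Coronal fractions 4 and 10 and horizontal fractions 1 and 6 stood above the rest (limma adjusted p = 0.265 for the coronal and 0.0566 for the horizontal terms). The same 4 fractions held the highest mean levels of 5 meningeal fibroblast markers within their series, 3.37 and 3.07 along the coronal and 3.10 and 4.21 along the horizontal axis. Those 5 markers were above background in every fraction, and r between their mean and Cdh1 was 0.81 over the 22 fractions, which share arrays and neighbours. Along the sagittal series Cdh1 was highest in fraction 1 (-2.23), where the meningeal mean was lowest (2.10), and next highest in fraction 6 (-2.33), where that mean was highest (3.48). Of 3 epithelial markers 1 was above background in all 22 fractions, and r of their mean with Cdh1 was -0.44. The part of these tissues in the level of Cdh1 was not tested.

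Cdh24 and Cdh3 were the only 2 called members with a fitted peak at the hindbrain end, and both were near background in many fractions. Cdh24 had coronal levels of -2.80, -0.67, -4.55, -4.13, -5.28, -4.98, -4.86, -4.72, -6.50 and -6.54, of which those in fractions 1 to 4 were well above background and the others give only a bound. Fraction 2 stood at least 29.7-fold above fraction 10, taking as the bound the lowest signal well above background on that array (limma adjusted p = 0.0461). Its high values along the horizontal axis were -1.81, -1.22 and -2.34 in fractions 1 to 3, and along the sagittal axis -2.63 in fraction 1 and -3.26 in fraction 3. Together with coronal fractions 1 and 2 these are the 7 arrays with the spike-in slope out of range. In the horizontal and sagittal series Cdh24 was above background, and so passed the filter, only on such arrays. Cdh24 lay between -3.26 and -0.67 on them and between -6.54 and -4.13 on the other 15, with no overlap, and its r with spike-in probe a107 was 0.78 over the 22 arrays. Position and array cannot be told apart for Cdh24 in the hindbrain fractions. With the 15 arrays in range the adjusted p was 0.0675, with the spike-in covariate it was 0.0102, without coronal fraction 2 it was 0.148, and the call was lost without any 1 of 8 of the 10 coronal arrays. The call was also lost without a filter on dim probes.

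Cdh3 (P-cadherin, named for placenta and found in pigmented and other epithelia) had coronal levels of -1.90, -2.62, -3.23, -4.03, -5.53, -4.61, -3.38, -4.41, -6.37 and -3.20, with fractions 5, 6, 8 and 9 not well above background. The hindbrain fraction was highest, at least 10.7-fold above fraction 9 (limma adjusted p = 0.0288). On the 7 arrays with the spike-in slope out of range its mean was -3.19, against -3.94 on the other 15, with overlapping ranges. Of those 7, horizontal fractions 1 to 3 and sagittal fractions 1 and 3 ran from -3.87 to -3.16. The adjusted p was 0.542 with the 15 arrays in range, 0.12 without coronal fraction 1, 0.0715 without fraction 2 and 0.0527 without fraction 6. The call was kept in 6 of 14 alternative settings. It was lost with the spike-in signal as a covariate, with arrays centred on the median and with the coronal arrays alone, among others.

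**Figure D4:**
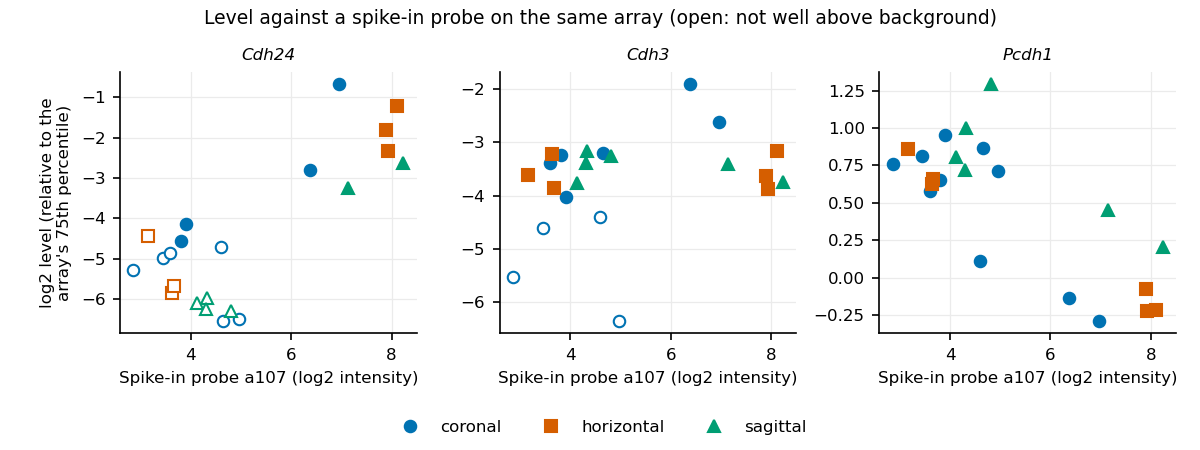
Scatter plots of the log2 level of Cdh24, Cdh3 and Pcdh1 (y axes) against the log2 intensity of spike-in probe a107 on the same array (x axis). Points are the 22 arrays, by series, and open symbols are values not well above background. The 7 arrays above 6 on the x axis hold the 7 highest values of Cdh24, and Pcdh1 runs the other way.

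Along the horizontal series, from the cortical side to the base of the brain, 2 of the 29 members changed, beside 6.57% of all probes. Both rose toward the base, beside 3.94% of all probes with a positive linear term. Cdh22, a type II cadherin of pituitary and brain, had levels in horizontal fractions 1 to 6 of 1.08, 1.88, 2.21, 2.91, 3.39 and 3.35. Each fraction up to the fifth stood above the one before it, and fraction 5 was 4.98-fold above fraction 1. The fitted linear change was 2.37 ± 0.40 log2 units (SE) over the series (F test of the linear and quadratic terms together, limma adjusted p = 0.0159). Cdh4, or R-cadherin, a type I cadherin first found in retina, had horizontal levels of 0.89, 1.16, 1.19, 2.34, 3.12 and 2.76. Fractions 1 to 3 were low and 4 to 6 high, with fraction 5 at 4.70-fold over fraction 1. The fitted linear change was 2.34 ± 0.56 (the same F test of both terms, limma adjusted p = 0.0492). Of the 29 members 20 had a positive fitted linear change along this axis, beside 62.2% of all genes tested.

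The low horizontal fractions were again the 3 arrays with the spike-in slope out of range, so position and array cannot be told apart along this series. With the spike-in signal as a covariate the adjusted p was 0.236 for Cdh22 and 0.728 for Cdh4, and with the 6 horizontal arrays alone both were 0.181. Without horizontal fraction 1 Cdh22 had an adjusted p of 0.0915 and without fraction 5 one of 0.0534. Without coronal fraction 2, in the other direction, 5 members were called along the horizontal axis, beside 16.5% of all probes in the same fit. Cdh4 was lost without any 1 of the 6 horizontal arrays, with adjusted p-values up to 0.136 over all 22 omissions. Within the 3 horizontal arrays in range, Cdh22 went from 2.91 in fraction 4 to 3.39 and 3.35, and Cdh4 from 2.34 to 3.12 and 2.76. In the coronal series, where neither passed the threshold, the levels of Cdh22 were 3.52, 2.62, 3.40, 3.65, 3.30, 3.50, 3.01, 2.49, 2.43 and 3.01 and those of Cdh4 1.54, 1.59, 2.12, 2.72, 3.25, 3.30, 2.59, 1.85, 2.18 and 3.03. Cdh22 was highest in fraction 4 and Cdh4 in fraction 6, and both were lower in fractions 8 and 9 than in the olfactory bulb fraction. The other 2 Cdh4 probes had r of 0.94 and 0.82 with the probe used.

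**Figure D5:**
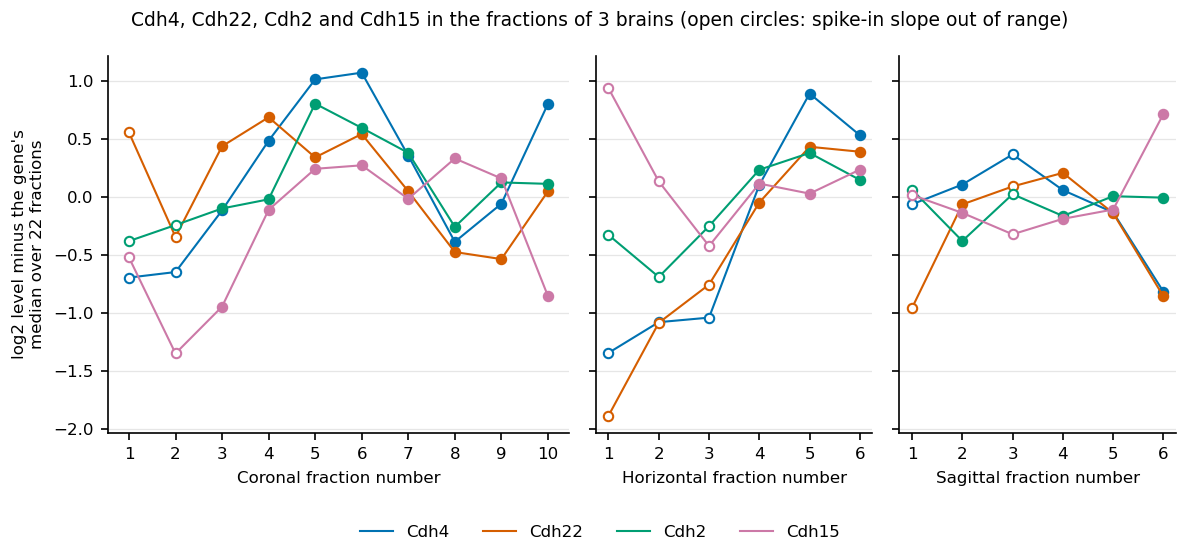
Line plot of Cdh4, Cdh22, Cdh2 and Cdh15 (y axis, log2 level minus each gene's median over 22 fractions) against fraction number in the 3 series. Open circles mark the spike-in slope out of range. Cdh4 and Cdh22 rise along the horizontal series, Cdh2 stays within about 1 unit of its median, and Cdh15 is highest in horizontal fraction 1.

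In the sagittal series no member passed the adjusted threshold, for the linear term across the brain from side to side (10.2% of all probes) or for the quadratic term, the middle against both sides (0.0303% of all probes). At an unadjusted limma p under 0.05 there were 4 members for the linear term (Cdh10, Cdh24, Pcdh7 and Pcdh9), beside 24% of all probes, and 3 for the quadratic term (Cdh22, Pcdh17 and Pcdh18), beside 14.8%. The lowest adjusted p was 0.137 for Cdh10 in the linear and 0.138 for Cdh22 in the quadratic term. Sagittal levels of Cdh22 were 2.01, 2.90, 3.05, 3.17, 2.82 and 2.11, low at both sides and high in the middle. Those of Pcdh17 were 2.89, 3.13, 3.66, 3.21, 2.98 and 1.81, highest in fraction 3 and lowest in fraction 6. Of the 29 members 15 were highest in sagittal fraction 3, an array with the spike-in slope out of range, beside 13.2% of all genes tested. In fraction 6 15 were lowest, beside 29.5% of all genes tested.

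Sagittal fractions were also set side by side in order from each end, 1 with 6, 2 with 5 and 3 with 4. Since the end fractions joined unequal numbers of slabs, these pairs were not mirror images by slab number, and slab 4 in fraction 3 lay opposite slab 6 in fraction 5. The differences are therefore no measure of symmetry. Between fractions 1 and 6 the members differed by a median of 0.507, between 2 and 5 by 0.240 and between 3 and 4 by 0.309, beside 0.553, 0.214 and 0.248 over all genes tested. Of the 29 members 10 were higher in fraction 6 than 1, beside 52.2% of all genes tested, 5 were higher in fraction 5 than 2 (49.8%) and 6 were higher in fraction 4 than 3 (55.2%). Fractions 1 and 3 were the sagittal arrays with the spike-in slope out of range, and fractions 2 and 5 were both in range.

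Of the delta-1 protocadherins Pcdh9 alone passed a threshold. It had coronal levels of 1.25, 0.56, 0.92, 1.78, 2.09, 1.92, 1.59, 1.00, 1.20 and 0.44, with a peak in fractions 4 to 6 (limma adjusted p = 0.0469). That call was lost in 11 of 15 alternative settings and without any 1 of 6 of the 10 coronal arrays, with adjusted p-values up to 0.138 over all 22 omissions. The other 2 Pcdh9 probes disagreed with each other, with r of 0.83 and -0.49 to the probe used. Pcdh7 ran from -1.06 in fraction 2 to 0.062 in fraction 7 (limma adjusted p = 0.374), and of its other probes 1 had r = 0.57 and 1 had r = -0.21 with the probe used. Pcdh1 ran from -0.29 in fraction 2 to 0.95 in fraction 4 (limma adjusted p = 0.184). Over the 22 arrays its r with spike-in probe a107 was -0.77.

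Of the remaining protocadherins and cadherins, none passed a threshold. Pcdh12, the protocadherin of endothelium, ran from -0.27 in coronal fraction 1 to 0.57 in fraction 3 (limma adjusted p = 0.199), and the mean of 4 endothelial markers ran from 1.04 in coronal fraction 10 to 1.51 in fraction 4, with r = 0.72 to Pcdh12 over the 22 fractions. Pcdh20 was highest in coronal fraction 5 (1.28) and fraction 10 (1.27) and lowest in fraction 2 (-0.29) (limma adjusted p = 0.146). Pcdh15, the tip link partner of Cdh23, ran from -1.99 in fraction 2 to -0.91 in fraction 7 (limma adjusted p = 0.094). It had 6 probes, and r of the other 5 with the one used ran from -0.49 to 0.46, so its profile rests on 1 probe. Cdh26, an epithelial cadherin, had coronal levels of 0.49, -0.61, 1.25, 1.13, 1.41, 1.32, 1.52, 0.56, 1.71 and 1.76. Its olfactory bulb fraction was highest and fraction 2 lowest (limma adjusted p = 0.083).

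Members were compared by the study's own measure of similar expression, Pearson r above 0.85 over the 22 fractions. Of 406 pairs of tested members 8 passed, 1.97%, beside 0.759% of all pairs of genes tested. The count ranged from 6 to 14 when 1 array was left out, with 14 without coronal fraction 10 or horizontal fraction 6. With arrays centred on the median 30 pairs passed (2.74% of all gene pairs), and 65 passed unscaled (7.42%). The pairs were Pcdh17 with Pcdh19 (r = 0.94), Cdh13 with Pcdh10 (0.92), Cdh13 with Pcdh19 (0.91), Cdh13 with Pcdh17 (0.88), Cdh12 with Pcdh10 (0.87), Pcdh10 with Pcdh19 (0.87), Pcdh10 with Pcdh17 (0.85) and Cdh4 with Pcdh18 (0.85). Cdh13, Pcdh10, Pcdh17 and Pcdh19 thus formed a group in which every pair passed. Within the delta-2 protocadherins 3 of 10 pairs passed with a median r of 0.81, and within the type II cadherins 0 of 55 with a median of 0.11. The fractions of a series share a brain, neighbouring tissue and array quality, so these r are descriptions.

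Pcdh17 and Pcdh19 were alike in every series, with r = 0.98 over the 10 coronal, 0.97 over the 6 horizontal and 0.91 over the 6 sagittal fractions, and 0.94 over the 15 arrays in range. Cdh12 and Pcdh10 were alike along the coronal (0.96) but less so along the horizontal (0.64) and sagittal fractions (0.29). Pcdh8 and Pcdh19 had r = 0.89 along the coronal, 0.78 along the horizontal and -0.64 along the sagittal fractions, where Pcdh8 was highest and Pcdh19 lowest in fraction 6. The strongest negative pair was Cdh24 with Pcdh1 (r = -0.86, and -0.30 over the 15 arrays in range).

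The genes most like each of the 6 members of largest spread among those called along the coronal series were read from the same 22 fractions. For Pcdh19 they were Slc41a2 (r = 0.98), Mfsd6 (0.97) and Kif3c (0.97), for Pcdh17 Usp29 (0.96), Pak3 (0.95) and Ccdc184 (0.95), for Pcdh8 Chst1 (0.96) and Klhl8 (0.95), and for Cdh13 Slc2a3 (0.96), Hk1 (0.96) and Gdf1 (0.95). For Cdh24 they were Enpp3 (0.94), Ceacam2 (0.92) and Gm5622 (0.91). The nearest to Cdh3 were Rab38 (0.78), Sap25 (0.76) and Nlrp5 (0.74), and no gene passed 0.85. For the other 5 members, 605 genes passed 0.85 with Pcdh19, 613 with Cdh13, 370 with Pcdh17, 328 with Pcdh8 and 206 with Cdh24.

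Genes that work with the cadherins were read from 2 lists set by function. Of 15 tested catenins, nectins and other partners 6 changed along the coronal series, beside the same 19.8% of probes and 4246 of 16691 genes. They were the neuronal alpha-catenin Ctnna2 (limma adjusted p = 0.00636), Ctnnal1 (0.0255), beta-catenin Ctnnb1 (0.0101), the neural p120 relative Ctnnd2 (0.0106), afadin Afdn (0.0332) and Nectin2 (0.0319). The highest measured level was in fraction 6 for Ctnna2, fraction 5 for Ctnnd2, fraction 3 for Ctnnal1 and the olfactory bulb fraction for Ctnnb1 and Afdn. Ctnnd1, or p120-catenin, was the one partner that changed along the horizontal series (limma adjusted p = 0.0344, beside 6.57% of probes), and Afdn the one along the sagittal linear term (0.0344, beside 10.2%). Both calls were lost with the spike-in covariate, with arrays centred on the median, unscaled and with the arrays of the series alone. Of the 6 coronal calls 2 remained with the 15 arrays in range, 4 with the spike-in covariate and 1 with the slide as a block, and none of them did with the coronal arrays alone. Ctnna3 was not tested, being below the detection filter.

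Of 14 tested members of the wider cadherin superfamily 9 changed along the coronal series, again beside 19.8% of probes and 4246 of 16691 genes. They included Fat3 (limma adjusted p = 0.00269), the planar polarity receptors Celsr2 (0.00729) and Celsr3 (0.0116), and Cdhr1 (0.00857), a marker of olfactory bulb output neurons with a fitted range of 5.00 log2 units and its peak in fraction 10. Cdhr1 was also 1 of the 3 olfactory bulb markers that named fraction 10, so its peak there is no separate result. Fat2, a protocadherin-like giant cadherin of cerebellar granule cells, had coronal levels of 0.54, 1.43, 1.82, 0.67, -0.79, -0.88, -0.86, -0.43, -0.68 and -0.62, highest in fraction 3 and falling from there to fraction 6 (limma adjusted p = 0.023). The others were Fat4, Dchs1, Clstn1 and Clstn2. With the 15 arrays in range 4 of the 9 remained, with the spike-in covariate 3, with the slide as a block 1 and with the coronal arrays alone 1. Celsr1 changed along the horizontal series (adjusted p = 0.0392, beside 6.57% of probes), and Celsr2 (0.0199) and Clstn1 (0.0479) along the sagittal linear term (10.2% of probes). With the spike-in covariate the call of Celsr1 was lost, and 1 of the 2 sagittal calls. Both sagittal calls were lost with the 15 arrays in range, with arrays centred on the median and with the sagittal arrays alone.

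Over all members tested, the SD of the level over the 22 fractions had a median of 0.501, beside 0.417 over all genes tested. The largest SD belonged to Cdh24 (1.81) and Cdh3 (0.93), whose low values lie near background, then to Pcdh19 (0.83), Cdh1 (0.79), Pcdh8 (0.73), Cdh13 (0.72) and Cdh4 (0.70). The smallest belonged to Pcdh15 (0.30), Cdh10 (0.33), Pcdh12 (0.34) and Cdh2 (0.34). In the heatmap of levels these last genes show no column far from their median.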

How the data were processed

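The authors hybridised total RNA of each fraction to an Agilent 1-colour mouse array, and per the file headers Feature Extraction 10.10.1.1 gave a background-subtracted processed intensity for each spot. A deposited table gave log2 values of 47544 transcripts. For the 47478 that matched a probe, 99.899% of the values lay within 0.02 of the log2 intensity scaled to the 75th percentile of the array. Outlier and control spots were left out, spots of 1 probe were averaged, and 55600 of 55681 probes had a value on all arrays. Gene names came from RefSeq (26553 of 28087 RefSeq probes matched). A spot counted as detected where the scanner software marked it well above background.

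Position was tested with limma 3.58.1 in R 4.3.3 (lmFit and eBayes) in 1 model of 22 arrays, with an intercept and linear and quadratic terms for each series, leaving 13 residual degrees of freedom. The spread is the scatter of single arrays around these curves and holds no spread between animals. P-values were adjusted by Benjamini and Hochberg over 39621 probes, those detected at least once in each of the 3 series. The script was tested on simulated data. Alternatives changed the scaling, background correction (normexp with offset 50 on the median signal, since the mean signal was not in the files used), filter, curve, covariates and arrays. Levels in every fraction of a series are printed for members past the threshold in that series. The rule also named the 12 members of largest SD, whose levels in the other series are printed in part and drawn in the heatmap. Of the 3 genes most like Pcdh8, 1 is not reported here. The members and lists were chosen with earlier results of these data known. Descriptions used Python 3.11.15 with numpy 2.4.6 and pandas 2.3.3.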

Additional observations from a re-analysis of the deposited data

Results flagged for a closer look

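Of 87 groups of fractions tested for a single value far from the rest, 3 stood out (3.45%), and chance gives about 1 in 20 groups. Each is the level of 1 member in the last fraction of a series, and each was well above background. Cdh7 in coronal fraction 10, the olfactory bulb fraction, was -1.93 while the other 9 lay between -0.78 and -0.013, a gap of 0.6 of the whole range. Cdh15 in sagittal fraction 6 was 1.51 while the other 5 lay between 0.47 and 0.81, a gap of 0.674 of the range. Pcdh8 in sagittal fraction 6 was 2.44 while the other 5 lay between 2.01 and 2.15, a gap of 0.662 of the range. Sagittal fraction 6 joined slabs 7 to 9 and coronal fraction 10 slabs 10 and 11, and the part of this pooling in the values was not tested.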

How the results depend on the processing

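Each fraction was 1 array of 1 mouse, so the p-values hold neither animal nor array replication, and 7 arrays had the spike-in slope out of range. For position along the coronal series, 15 members were called, and the count stayed between 11 and 15 under other scalings, normexp, the authors' table, the filters, a cubic term and the mean of a gene's probes. It was 4 with the spike-in signal as a covariate, 9 with the 15 arrays in range (6 of them among the 15), 3 with a linear term alone, 2 with the slide as a block, 1 with the coronal arrays alone and 1 with the coronal arrays of slide 1. The slide block fits coronal fraction 2 exactly and cannot tell slide from position. For the horizontal series 2 members were called. The count was 1 with arrays centred on the median, unscaled, with a cubic term, without a filter or with the mean of probes, 0 with the spike-in covariate, the arrays in range or the horizontal arrays alone, and 4 with a linear term alone or the slide as a block. With the arrays in range the horizontal curve passes through its 3 arrays, and those 0 calls say nothing of stability. The sagittal linear count was 0, or 1 with the arrays in range, and the quadratic count was 0 under every alternative run (a linear term alone gives none). Leaving out each array in turn gave 7 to 19 coronal, 0 to 5 horizontal, 0 to 1 sagittal linear and 0 to 0 sagittal quadratic calls, a median SD of 0.446 to 0.513 and 6 to 14 pairs. For the members called, no fitted curve correlated below 0 with the reported curve in the alternatives run. The members' median SD of 0.501 became 0.609 when arrays were centred on the median, 0.707 unscaled, 0.404 with normexp and 0.428 with the spike-in signal regressed out. Over all genes tested the median SD moved likewise, from 0.417 to 0.490, 0.586, 0.320 and 0.370. The 8 pairs above 0.85 became 30 with median centring (2.74% of all gene pairs), 65 unscaled (7.42%), 5 with the spike-in signal regressed out (0.460%), 23 at 0.80 (1.58%) and 3 at 0.90 (0.261%), and within series 53 (coronal, 2.93%), 60 (horizontal, 6.64%) and 49 (sagittal, 6.74%). The median difference between sagittal fractions paired from each end was 0.279, and 0.712 unscaled. The cause of these shifts was not tested. No paired analysis was possible because fraction numbers of different series mark different planes of different brains.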
